A study of Mus musculus with 8 samples.

Results

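Described here are 10 genes that encode the main apolipoproteins made by the liver and the lipid transfer protein that loads very low density lipoprotein (VLDL): Apoa1, Apoa2, Apoa4, Apoa5, Apob, Apoc1, Apoc3, Apoe, Apoh and Mttp. They were taken from the deposited table by symbol, through the GENCODE M21 annotation of GRCm38, and are 10 of its 55450 genes. All 10 passed the filter on low values and are among the 16672 genes tested. RNA was sequenced from 8 mouse livers, 4 from mice given AAV-H19 (livers 25 to 28) and 4 from mice given AAV-Null (livers 21 to 24). AAV is adeno-associated virus, a gene transfer vector, and H19 is a non-coding RNA, expressed from the maternal allele, that the liver makes mainly before birth. All the mice, controls included, received an ethanol diet, so no liver here shows the level of these genes without ethanol. The labels used here give no age, sex, strain, batch, insert of AAV-Null, or promoter that drives H19. They do not say whether livers came from separate litters or days. A p-value here only sets the group difference against the spread of these particular livers within groups, and both may be technical.

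Hepatocytes assemble VLDL around a single large protein, apolipoprotein B, onto which the microsomal triglyceride transfer protein loads lipid in the endoplasmic reticulum. Smaller, exchangeable apolipoproteins join VLDL and high density lipoprotein (HDL) and set how the particles are remodelled and taken up: APOA1 and APOA2 form HDL, APOC1 and APOC3 slow the clearance of triglyceride-rich particles, APOA5 speeds it, and APOE is the ligand for hepatic uptake. Most of these genes are transcribed at high level in hepatocytes, and several are also active in the intestine.

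The labels were checked first on H19 itself, which had 133, 155, 104 and 121 CPM (counts relative to each library's total, scaled by TMM) in the AAV-H19 livers, against 0.542, 0.142, 0.314 and 1.41 CPM in the AAV-Null livers. Its log2 fold change, AAV-H19 over AAV-Null throughout, was 7.73 ± 0.66 (SE; edgeR quasi-likelihood test, adjusted p = 0.00134). The deposited values summed to 63.7 to 78.8 M units in AAV-H19 libraries and to 78.3 to 83.0 M in AAV-Null libraries. The lowest value of any member in any library was 23495 units, for Mttp. All 10 hepatocyte markers listed were detected, and Alb, which encodes serum albumin, had at least 84428 CPM in the AAV-H19 livers and at least 57888 CPM in the AAV-Null livers. The library AAV-Null 22 stood apart from the others for several members, and calls of members that it changes are given with and without it.

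Of the 10 genes, 1 passed an adjusted p of 0.05 over all genes tested: Apoc3 was lower in the AAV-H19 livers, and none was higher. Over all genes tested 11.7% passed, 5.6% as higher and 6.07% as lower, so the members' share lies near that background. With upper-quartile scaling in place of TMM the split over all genes was 656 higher and 1557 lower, against 934 and 1012. DESeq2 called more genes than edgeR with TMM in both directions (counts in the last section), so its calls of members stand against a larger share. Leaving out any single AAV-H19 liver left no member called and 86 to 373 genes higher and 27 to 327 lower, the fewest without liver 27. The members' median log2 fold change was -0.34, against -0.02 over all genes tested, and 8 of the 10 were negative. In 2 members, Apob and Apoc3, the groups did not overlap, against 23.7% of all genes tested. Without adjustment 4 members had a p under 0.05, against 29.8% of all genes tested. The fitted changes ran with transcript length. Apob, with the longest transcript, had the highest positive change and the short transcripts of Apoc1, Apoc3 and Apoa2 the most negative ones.

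**Figure D1:**
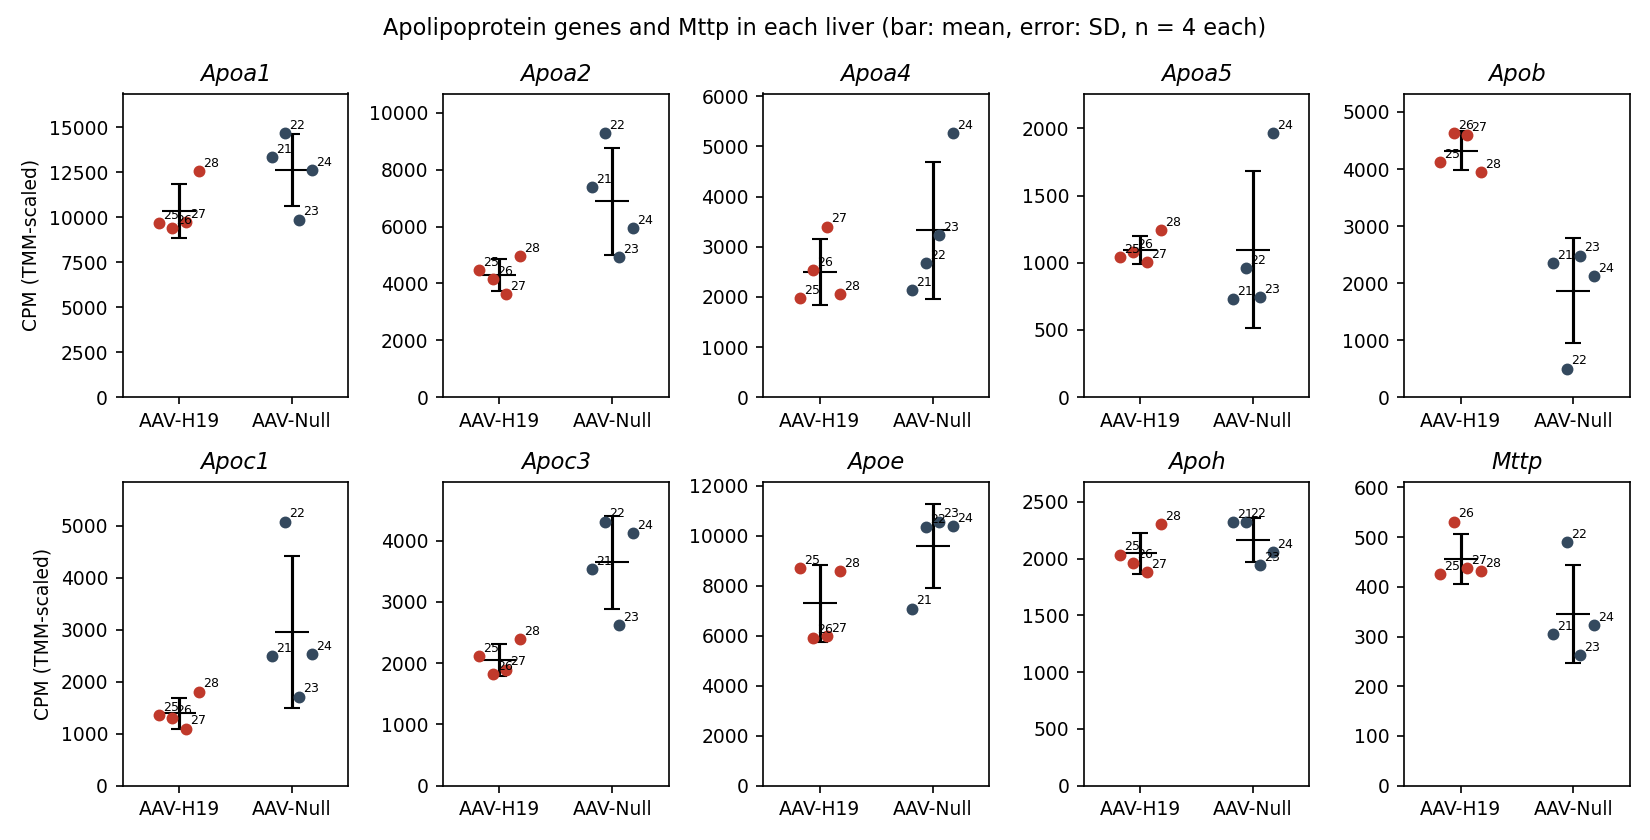
CPM (TMM-scaled, linear axis from 0, a scale per gene) of each of the 10 genes in every liver, AAV-H19 to the left of AAV-Null; numbered points are livers, horizontal bars are group means and error bars the SD (n = 4 each). For Apob and Apoc3 the groups did not overlap, and AAV-Null 22 was the lowest liver for Apob with 500 CPM.

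The promoters of Apob, Apoa1 and Apoa2 are shown because Apob differed most upward, while Apoa1 and Apoa2 varied together from liver to liver (values further on). Each window is RefSeq sequence on GRCm38.p6, read 5′ to 3′ on the gene's strand from 250 bases before to 50 bases after the annotated start. Capitals mark the sequence TATAAA, the letters of the TATA box, wherever they occur in the window.
Apob, chr12:7977427-7977726, plus strand: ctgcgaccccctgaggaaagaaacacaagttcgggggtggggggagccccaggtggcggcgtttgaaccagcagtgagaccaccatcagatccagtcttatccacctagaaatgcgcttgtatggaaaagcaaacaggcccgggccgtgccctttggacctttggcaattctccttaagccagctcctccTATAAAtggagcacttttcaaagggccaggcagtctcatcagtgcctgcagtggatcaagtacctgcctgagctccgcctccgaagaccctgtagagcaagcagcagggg
Apoa1, chr9:46228380-46228679, plus strand: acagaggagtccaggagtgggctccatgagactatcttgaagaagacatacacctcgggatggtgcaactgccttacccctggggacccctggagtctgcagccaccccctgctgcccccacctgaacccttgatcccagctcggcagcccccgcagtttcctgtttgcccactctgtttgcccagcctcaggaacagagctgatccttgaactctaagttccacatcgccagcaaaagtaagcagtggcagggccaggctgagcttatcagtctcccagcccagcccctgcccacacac
Apoa2, chr1:171224804-171225103, plus strand: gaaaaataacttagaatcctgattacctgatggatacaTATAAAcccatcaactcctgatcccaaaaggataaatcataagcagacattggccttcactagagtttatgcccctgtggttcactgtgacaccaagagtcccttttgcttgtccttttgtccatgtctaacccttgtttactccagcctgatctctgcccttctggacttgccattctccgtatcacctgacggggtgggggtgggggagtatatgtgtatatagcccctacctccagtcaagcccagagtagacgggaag

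In the table of windows, 8 of the 10 genes had an entry, with 12 windows in all; Apoc1 and Apoc3 had none. The windows were searched on both strands for AGGTCA, a half-site of nuclear receptors, for CAAAGTCCA, a core of HNF4A binding, and for TATAAA. No motif is part of another. AGGTCA was found in 2 of the 12 member windows, against 16.3% of all 32851 windows. CAAAGTCCA was found in 0 member windows, against 0.475%. TATAAA was found in 5 of the 12 member windows, from 4 members, against 13.6% of all windows; windows of the same gene are not independent. In Apob it lay at positions -60 to -55 from the RefSeq start and in Apoa2 at -212 to -207, while the Apoa1 window held none of these motifs. The RefSeq start of the window lies 29 nt downstream of the GENCODE gene start for Apob, 50 nt for Apoa1 and 0 nt for Apoa2. A match describes the letters of the window only.

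Apob encodes the structural protein of VLDL. Apob (ENSMUSG00000020609, chr12:7977648-8016835, plus strand; longest transcript 13934 nt) had 4117, 4630, 4591 and 3940 CPM in the AAV-H19 livers, against 2352, 500, 2481 and 2126 CPM in the AAV-Null livers. Every AAV-H19 liver was above every AAV-Null liver, and AAV-Null 22 was far below the other AAV-Null livers. The means were 4319 ± 344 CPM in AAV-H19 livers and 1865 ± 922 CPM in AAV-Null livers (SD, n = 4 each). Its log2 fold change was 1.21 ± 0.41, with a 95% interval of 0.30 to 2.12, and it did not pass after adjustment over all genes (edgeR, adjusted p = 0.0788). Without AAV-Null 22 the Apob difference was smaller, 0.90 ± 0.13, and passed (edgeR, adjusted p = 0.00681), and DESeq2 on all 8 livers called it too (1.20, adjusted p = 0.0172). With a length offset, which takes each library's own trend on transcript length out of the fit, the change of Apob was 0.69 ± 0.36 (adjusted p = 0.294), and 0.40 (adjusted p = 0.138) when AAV-Null 22 was also left out.

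Mttp encodes the large subunit of the microsomal triglyceride transfer protein, which loads lipid onto apolipoprotein B. Mttp (ENSMUSG00000028158, chr3:138089854-138144968, minus strand; 3963 nt) had 426, 531, 438 and 432 CPM in the AAV-H19 livers, against 306, 489, 264 and 323 CPM in the AAV-Null livers. AAV-Null 22 lay within the AAV-H19 range and the other AAV-Null livers below it. Its log2 fold change was 0.40 ± 0.21 and did not pass (edgeR, adjusted p = 0.231). Without AAV-Null 22 it was 0.62 ± 0.14 and passed (adjusted p = 0.031), so this library decided the call for Mttp as for Apob, in which it was the lowest liver. With the length offset Mttp stood at 0.20 (adjusted p = 0.677). Without AAV-Null 22, the called members were Apob and Mttp as higher and Apoc3 as lower, against 11.4% of all genes called in that fit.

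The C apolipoproteins are small proteins that exchange between particles. Apoc3, an inhibitor of lipoprotein lipase and of hepatic uptake, was lower in the AAV-H19 livers. Apoc3 (ENSMUSG00000032081, chr9:46232933-46235636, minus strand; 709 nt) had 2112, 1814, 1894 and 2397 CPM in the AAV-H19 livers, against 3536, 4309, 2618 and 4116 CPM in the AAV-Null livers. The groups did not overlap, with the lowest AAV-Null liver above the highest AAV-H19 liver. The means were 2054 ± 261 CPM in AAV-H19 livers and 3645 ± 759 CPM in AAV-Null livers (SD, n = 4 each), and the log2 fold change was -0.83 ± 0.20, with a 95% interval of -1.27 to -0.39 (edgeR, adjusted p = 0.0318). With the length offset the change was -0.25 ± 0.17 and the call was lost (adjusted p = 0.419). Leaving out any single AAV-H19 liver also ended the call for Apoc3 (adjusted p = 0.0941, 0.0933, 0.111 and 0.0562 without livers 25, 26, 27 and 28), as did leaving out AAV-Null 24 (0.0615) or an offset for GC content (0.0536).

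Apoc1, an inhibitor of receptor uptake and activator of the enzyme LCAT, had the most negative fitted change of the members but did not pass. Apoc1 (ENSMUSG00000040564, chr7:19689481-19692660, minus strand; 532 nt) had 1360, 1302, 1097 and 1809 CPM in the AAV-H19 livers, against 2487, 5077, 1714 and 2523 CPM in the AAV-Null livers. The groups overlapped only through AAV-H19 28 and AAV-Null 23, and AAV-Null 22 was the highest liver. The log2 fold change was -1.08 ± 0.32, with a 95% interval of -1.80 to -0.37 (edgeR, adjusted p = 0.0552). It passed with DESeq2 (-1.12, adjusted p = 0.00897), with upper-quartile scaling (adjusted p = 0.0373), with a filter of 1 CPM (0.0438), with values divided by 4 (0.046) and without AAV-Null 23 (-1.29, 0.0325). It was -0.69 (adjusted p = 0.0583) without AAV-Null 22 and -0.39 (adjusted p = 0.35) with the length offset.

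Apoa1 and Apoa2 encode the main proteins of HDL. Apoa1 (ENSMUSG00000032083, chr9:46228580-46230466, plus strand; 1035 nt) had 9666, 9394, 9711 and 12575 CPM in the AAV-H19 livers, against 13317, 14666, 9868 and 12624 CPM in the AAV-Null livers. The groups overlapped through AAV-H19 28, which lay inside the AAV-Null range. Its log2 fold change was -0.29 ± 0.18 (95% interval -0.69 to 0.12; edgeR, adjusted p = 0.319), and it was 0.17 with the length offset, so no direction can be given for Apoa1. Apoa2 (ENSMUSG00000005681, chr1:171225054-171226379, plus strand; 518 nt) had 4476, 4165, 3625 and 4947 CPM in the AAV-H19 livers, against 7384, 9286, 4941 and 5959 CPM in the AAV-Null livers. The groups met at AAV-H19 28 and AAV-Null 23, and otherwise every AAV-Null liver was higher. The log2 fold change of Apoa2 was -0.68 ± 0.22 (95% interval -1.17 to -0.19; edgeR, adjusted p = 0.0685) and -0.03 with the length offset (adjusted p = 0.951). Apoa2 passed with DESeq2 (-0.71, adjusted p = 0.0209), with upper-quartile scaling (-0.78, 0.0396) and without AAV-Null 23 (-0.82, 0.0393).

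Apoa4 and Apoa5 share the Apoa1 locus. APOA4 is made on feeding fat, mainly in the intestine but also in mouse liver, and APOA5 promotes the hydrolysis of triglyceride in plasma. Apoa4 (ENSMUSG00000032080, chr9:46240696-46243459, plus strand; 1815 nt) had 1979, 2537, 3400 and 2053 CPM in the AAV-H19 livers, against 2129, 2667, 3236 and 5265 CPM in the AAV-Null livers. The ranges overlapped widely and AAV-Null 24 was the highest liver; the log2 fold change was -0.42 ± 0.30 (edgeR, adjusted p = 0.379). Apoa5 (ENSMUSG00000032079, chr9:46268633-46271919, plus strand; 2515 nt) had 1045, 1082, 1004 and 1246 CPM in the AAV-H19 livers, against 727, 960, 743 and 1964 CPM in the AAV-Null livers. Again AAV-Null 24 was the highest liver, and the other AAV-Null livers were below every AAV-H19 liver. The log2 fold change of Apoa5 was -0.01 ± 0.31, with a 95% interval of -0.70 to 0.69 (edgeR, adjusted p = 0.991), and 0.44 without AAV-Null 24 (adjusted p = 0.153), so neither direction is shown.

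Apoe encodes the ligand through which remnants bind hepatic receptors, and macrophages make it as well as hepatocytes. Apoe (ENSMUSG00000002985, chr7:19696109-19699188, minus strand; 1408 nt) had 8701, 5920, 5994 and 8568 CPM in the AAV-H19 livers, against 7084, 10347, 10561 and 10380 CPM in the AAV-Null livers. The groups overlapped through AAV-Null 21, and the log2 fold change was -0.39 ± 0.21 (edgeR, adjusted p = 0.236). Of 12 macrophage markers, all 12 had negative fold changes and 7 passed as lower, against 6.07% of all genes tested. Their summed levels were 181 to 250 CPM in AAV-H19 livers and 311 to 485 CPM in AAV-Null livers. With the length offset 2 of the 12, Clec4f and Lyz2, passed as lower, against 0.804% of all genes tested in that fit. Cd68 had a positive change there (0.12, edgeR, adjusted p = 0.899). No marker of that list was at 0 in every library, and the part of macrophage RNA in the Apoe values was not tested. In RNA from whole liver, fewer cells of a type and less RNA per cell cannot be told apart.

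Apoh encodes beta-2-glycoprotein I, a plasma protein that binds phospholipid and travels partly on lipoproteins. Apoh (ENSMUSG00000000049, chr11:108343354-108414396, plus strand; 1190 nt) had 2035, 1964, 1884 and 2303 CPM in the AAV-H19 livers, against 2320, 2325, 1946 and 2056 CPM in the AAV-Null livers. The ranges overlapped almost fully. The log2 fold change was -0.08 ± 0.15, with a 95% interval of -0.42 to 0.26 (edgeR, adjusted p = 0.764), and 0.31 with the length offset (adjusted p = 0.261).

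**Figure D2:**
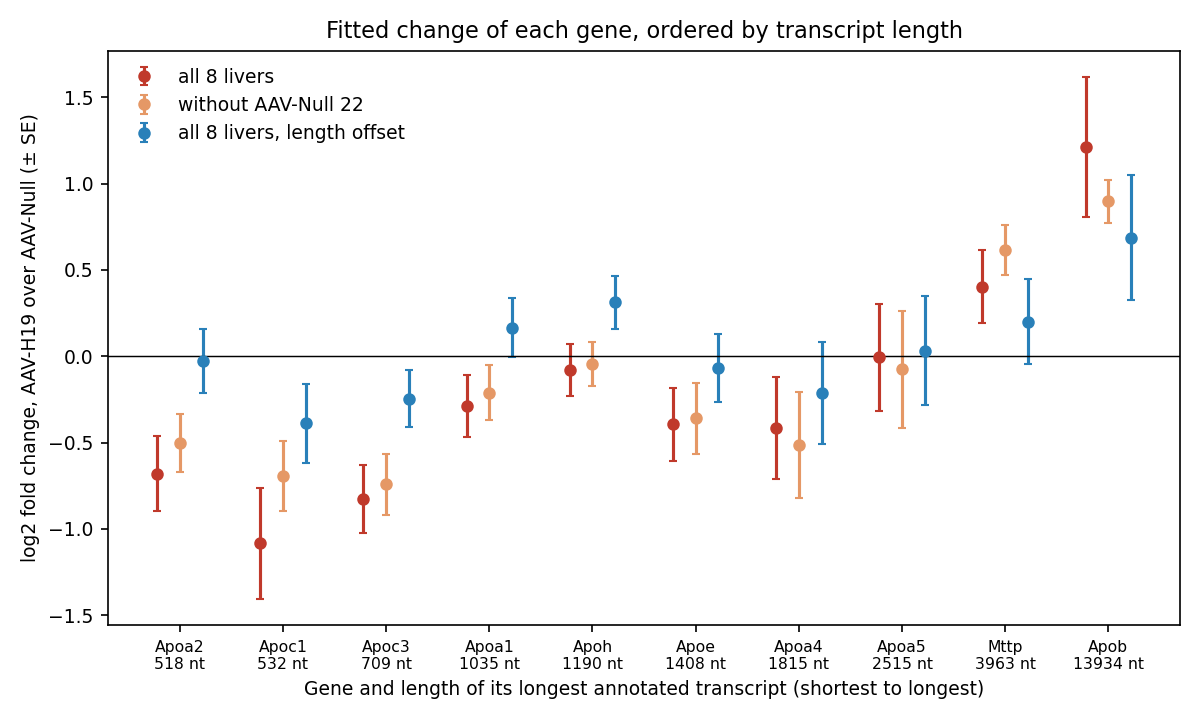
Log2 fold change (AAV-H19 over AAV-Null) of each gene with its SE, in order of transcript length (nt), from the fit on all 8 livers, without AAV-Null 22 and on all 8 livers with the length offset. Apob stood at 1.21 and at 0.69 with the offset, Apoc3 at -0.83 and at -0.25 with the offset, and with the offset no member passed an adjusted p of 0.05.

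The order of the fold changes was close to the order of transcript length. Across the 10 genes the Spearman rank correlation of log2 fold change with the length of the longest transcript was 0.855, a description over genes that share the same 8 libraries. The same correlation was 0.502 across 13538 protein-coding genes tested. In these, the median log2 fold change was -1.10 for the 230 genes of up to 750 nt, -0.61 for 1336 genes of 750 to 1500 nt, -0.17 for 4203 genes of 1500 to 3000 nt, 0.17 for 5892 genes of 3000 to 6000 nt and 0.49 for 1877 genes over 6000 nt. Apoc1, Apoc3 and Apoa2, at -1.08, -0.83 and -0.68, belong to the shortest class, and Apob at 1.21 to the longest. In the shortest class 44.8% of genes were called lower, and in the longest 20.8% were called higher.

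**Figure D3:**
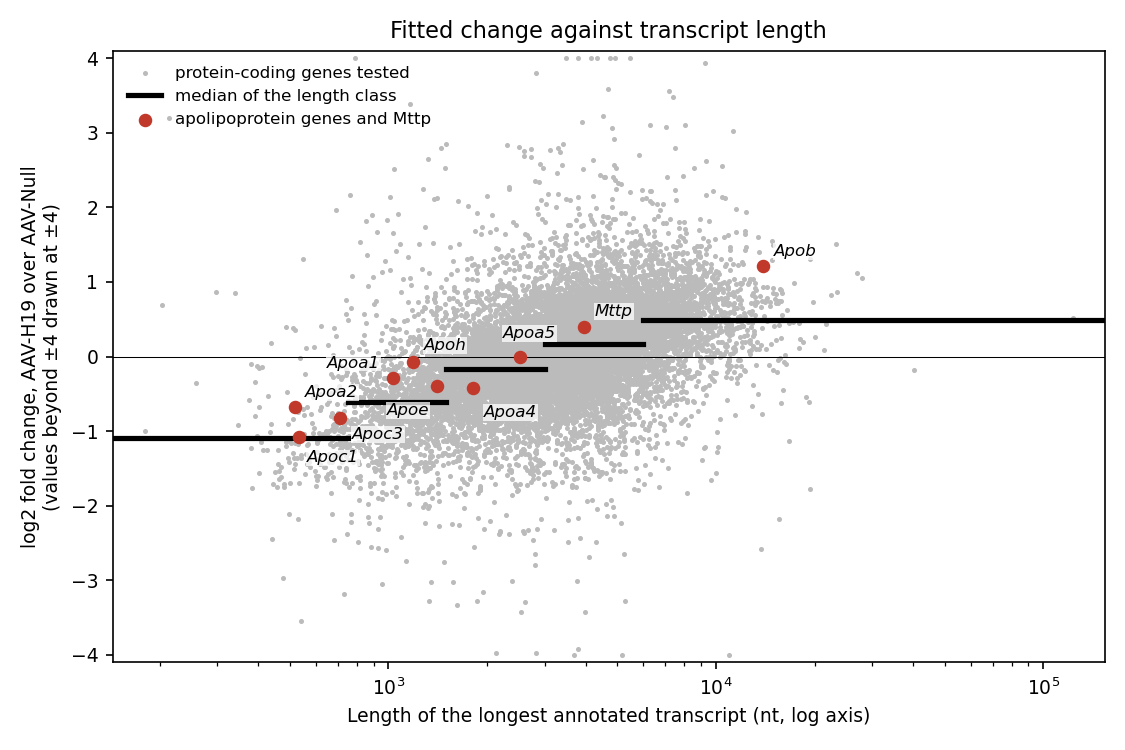
Log2 fold change against length of the longest transcript (log axis) for protein-coding genes tested (grey), the median of each length class (lines) and the 10 members (labelled red points); values beyond 4 in either direction are drawn at 4. The members run along the trend of all genes, from Apoc1 at -1.08 to Apob at 1.21.

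The trend with length was also read library by library, with log2 CPM centred on the mean of all 8 libraries. Its rank correlation with transcript length was 0.375, 0.389, 0.449 and 0.218 in AAV-H19 livers 25 to 28. In AAV-Null livers 21 to 24 it was -0.122, -0.351, -0.158 and -0.413. After this centring, opposite signs of the group averages follow from the trend of the fold changes and are no separate result. Each single liver had the sign of its group. After the length offset 2.21% of all genes tested were called, 1.41% as higher and 0.804% as lower, 0 members were called, the members' median log2 fold change was 0.00, and their rank correlation with length was 0.588. Because the trend differed between the groups, the trend and AAV-H19 cannot be told apart in this design.

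Summed over the 10 genes, the members took 3.51 ± 0.25% of all units in the AAV-H19 libraries (range 3.33 to 3.89%) and 4.51 ± 0.19% in the AAV-Null libraries (range 4.35 to 4.75%; SD, n = 4 each). These ranges of shares of the unscaled totals did not overlap, whereas the members' summed TMM-scaled levels did, at 33341 to 40268 CPM in AAV-H19 livers and 38370 to 50627 CPM in AAV-Null livers. Neither the shares nor the sums take out the length trend, and its part in them was not tested.

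Levels of different genes were compared per length, as units per kilobase of the longest transcript, scaled to the same total in every library. In the AAV-H19 livers the order was Apoa1 (17377 ± 2025), Apoa2 (14451 ± 1393), Apoe (8977 ± 1485), Apoc3 (5037 ± 425), Apoc1 (4543 ± 829), Apoh (2995 ± 179), Apoa4 (2414 ± 721), Apoa5 (758 ± 61), Apob (543 ± 69) and Mttp (202 ± 31), as mean per-length level ± SD of 4 livers. The ranges overlapped between the neighbours Apoa1 and Apoa2, Apoc3 and Apoc1, and Apoh and Apoa4, and not between the others. In the AAV-Null livers the order was Apoa2 (21047 ± 3914), Apoa1 (19426 ± 1649), Apoe (10971 ± 2225), Apoc1 (8625 ± 3348), Apoc3 (8165 ± 1103), Apoa4 (2958 ± 1250), Apoh (2913 ± 207), Apoa5 (697 ± 366), Apob (223 ± 119) and Mttp (138 ± 25). There the ranges overlapped for Apoa2 and Apoa1, Apoe and Apoc1, Apoc1 and Apoc3, Apoa4 and Apoh, and Apob and Mttp. With the median transcript length of each gene instead, Apoa1 had the highest mean and Mttp the lowest in both groups. The middle of the order depended on the length used. By median length in the AAV-H19 livers, Apoa5 (1527 ± 129) stood above Apoa4 (1177 ± 334), with overlapping ranges. Apoh (3159 ± 227) stood there above Apoc1 (3075 ± 610). By median length in the AAV-Null livers, Apoc3 stood above Apoc1 and Apoh above Apoa4.

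**Figure D4:**
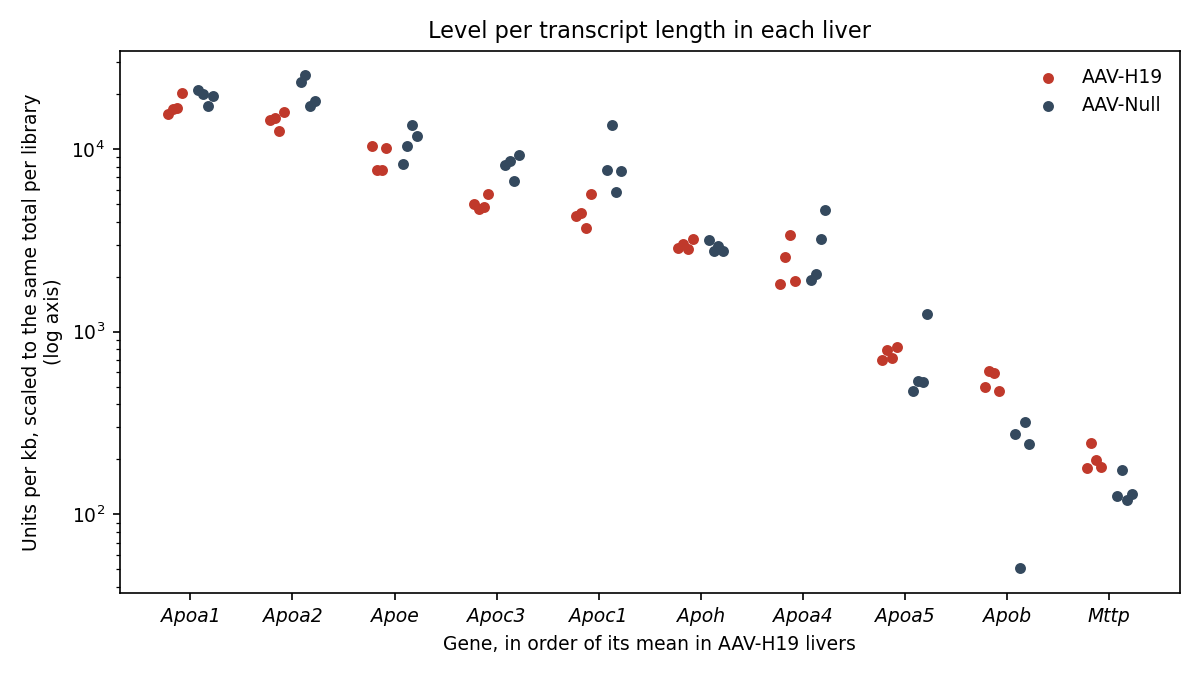
Level per length (units per kilobase of the longest transcript, scaled to the same total in every library; log axis) of the 10 genes, AAV-H19 to the left of AAV-Null, each point a liver, in order of the AAV-H19 mean. Apoa1 and Apoa2 lie at the top and Mttp at the bottom in both groups.

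Of the members, 4 lie in a cluster on chromosome 9, in the order Apoa1, Apoc3, Apoa4 and Apoa5 from 46228580 to 46271919 (43.3 kb), with fold changes of -0.29, -0.83, -0.42 and -0.01. On chromosome 7, Apoc2, Apoc4, Apoc1 and Apoe lie from 19671579 to 19699188 (27.6 kb), with fold changes of -1.10, -1.41, -1.08 and -0.39. Of these genes, Apoc3 on chromosome 9 and Apoc4 on chromosome 7 passed, and differences between neighbours were not tested.

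Apart from the group difference, livers also varied together. Deviations of log2 CPM from the group mean were correlated over the 8 livers for the 45 pairs of members: 28 pairs were positive, the median r was 0.206, 8 pairs were over 0.8 and 7 under -0.5. The highest was Apoa2 with Apoc1 (Pearson r = 0.936, Spearman rho = 0.857; 0.767 without the 2 livers farthest out). Apoa1 with Apoa2 had r = 0.852 (rho = 0.786; 0.786 without the 2 farthest livers). Apoa2 with Apoh had r = 0.891 (rho = 0.976), and 0.941 without the 2 farthest livers of that pair. In each pair the 2 livers left out lay farthest from the median deviation of the first-named gene. They can differ between pairs. Apob ran opposite to Apoc1 (r = -0.888, rho = -0.857; -0.504 without the 2 farthest livers), so the negative relation rests partly on those livers. Apob and Mttp, whose products work together, had r = -0.871 (rho = -0.619), and -0.202 without the 2 farthest livers, so this relation rests on them. All pairs share libraries, depth and the length trend, and no p is given.

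Among 7122 tested genes of at least 10 CPM, the genes whose deviations were most like those of Apob were Erc1 (r = 0.996, rho = 0.976), Tmem184b (r = 0.996, rho = 0.929) and Cdk13 (r = 0.992, rho = 0.857) over the 8 livers; without the 2 farthest livers r was 0.964, 0.962 and 0.962. For Apoa4 they were Snx6 (r = 0.981, rho = 0.952), Spag9 (r = 0.938, rho = 0.690) and Ccl6 (r = 0.935, rho = 0.857), and without the 2 farthest livers 0.975, 0.670 and 0.820.

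Other genes of lipoprotein metabolism were read from 5 lists of 70 genes, of which 69 were tested. In the AAV-H19 livers 10 passed as higher and 2 as lower, against 5.6% and 6.07% of all genes tested. With the length offset 1 passed as higher and 0 as lower, against 1.41% and 0.804%. The counts of each list below stand against the same shares. The 10 genes that passed as higher without the offset had longest transcripts of 2373 to 14888 nt. Mia2, Lpcat3, Apoc4, Angptl8, Abca1, Lrp1, Hnf4a, Prox1 and Ppara each lost their call in 3 (Mia2) to 13 (Lrp1) of 22 alternative analyses. Among 16 factors of VLDL assembly and secretion, 3 passed as higher and 0 as lower, with a median log2 fold change of 0.03. A1cf, the partner of APOBEC1 that binds Apob mRNA for its editing, had 45.0, 81.8, 66.8 and 60.9 CPM in the AAV-H19 livers, against 29.8, 22.4, 20.5 and 17.8 CPM in the AAV-Null livers. Every AAV-H19 liver was above every AAV-Null liver, and the log2 fold change was 1.49 ± 0.23 (edgeR, adjusted p = 0.00995). A1cf kept its call in all 22 alternative analyses, among them the length offset (1.41, edgeR, adjusted p = 0.0193). Its largest adjusted p among them was 0.04997, barely under the threshold, in a fit with 1 library left out (edgeR). Mia2, which helps export large cargo from the endoplasmic reticulum, had 290, 301, 313 and 286 CPM in the AAV-H19 livers, against 173, 154, 170 and 172 CPM in the AAV-Null livers. Its fold change was 0.83 ± 0.14 (edgeR, adjusted p = 0.0128) and 0.58 with the length offset (adjusted p = 0.0566). Lpcat3, which remodels membrane phospholipids for VLDL lipid loading, had 0.61 ± 0.16 (edgeR, adjusted p = 0.0408; with the length offset 0.68, adjusted p = 0.0508). Of those that did not pass, P4hb, the small subunit of the transfer protein, had -0.05 ± 0.20 (adjusted p = 0.887), Apobec1, the Apob mRNA editing enzyme, -0.37 ± 0.20 (adjusted p = 0.25), and Tm6sf2, a factor of VLDL lipidation, 0.25 ± 0.17 (adjusted p = 0.358).

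The other apolipoproteins and HDL proteins had 11 tested genes with 0 higher and 1 lower, with a median of -0.10. Apoc4 had 437, 441, 383 and 564 CPM in the AAV-H19 livers, against 878, 2266, 728 and 980 CPM in the AAV-Null livers, without overlap. Its fold change was -1.41 ± 0.35 (edgeR, adjusted p = 0.0336), and -0.92 (adjusted p = 0.0156) without AAV-Null 22, its highest liver. With the length offset Apoc4 had -1.30 and the call was lost (adjusted p = 0.0773). Apoc4 and Apoc2 both overlap the gene Gm44805, which spans them on the same strand, so their reads may be split among the 3 genes; summed, they had -1.37 (adjusted p = 0.0309). Apoc2, the activator of lipoprotein lipase, had -1.10 ± 0.32 (adjusted p = 0.0507), and -0.46 with the length offset (adjusted p = 0.382).

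Among 12 genes of lipoprotein remodelling, 1 passed as higher and 1 as lower, with a median of -0.08. Angptl8, a hepatic inhibitor of lipoprotein lipase induced by feeding, had 10.7, 45.9, 22.02 and 37.9 CPM in the AAV-H19 livers, against 133, 186, 102 and 37.0 CPM in the AAV-Null livers. AAV-Null 24 lay inside the AAV-H19 range, and the fold change was -1.98 ± 0.53 (edgeR, adjusted p = 0.0426), or -1.45 with the length offset (adjusted p = 0.139) and -1.63 without AAV-Null 22 (adjusted p = 0.0931). Abca1, the cholesterol exporter that starts HDL formation, had 258, 153, 211 and 160 CPM in the AAV-H19 livers, against 92.1, 84.2, 90.8 and 141 CPM in the AAV-Null livers. It did not overlap between groups, and its fold change was 0.94 ± 0.24 (edgeR, adjusted p = 0.0355), or 0.31 with the length offset (adjusted p = 0.519) and 0.85 without AAV-Null 22 (adjusted p = 0.0534). Lipc, hepatic lipase, had -0.09 ± 0.16 (adjusted p = 0.73).

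Of 10 clearance receptors and regulators, 1 passed as higher and 0 as lower, with a median of 0.24. Lrp1, a remnant receptor, had 623, 408, 485 and 313 CPM in the AAV-H19 livers, against 295, 211, 292 and 165 CPM in the AAV-Null livers, without overlap. Its fold change was 0.93 ± 0.26 (edgeR, adjusted p = 0.0488) and 0.36 with the length offset (adjusted p = 0.286), and 0.87 without AAV-Null 22 (adjusted p = 0.07).

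Of 20 transcription factors of apolipoprotein genes, 5 passed as higher and 0 as lower, with a median of 0.17. Hnf4a, a main regulator of hepatocyte genes, had 711, 590, 662 and 713 CPM in the AAV-H19 livers, against 420, 275, 417 and 371 CPM in the AAV-Null livers, without overlap; the fold change was 0.85 ± 0.18 (edgeR, adjusted p = 0.0243), or 0.63 with the length offset (adjusted p = 0.064). Prox1, a nuclear factor that can repress HNF4A targets, had 0.94 ± 0.16 (edgeR, adjusted p = 0.0134; with the offset 0.39, adjusted p = 0.189). Ppara, the fatty acid receptor, had 42.2, 36.9, 41.2 and 27.1 CPM in the AAV-H19 livers, against 11.8, 22.6, 12.4 and 15.9 CPM in the AAV-Null livers. Its fold change was 1.23 ± 0.24 (edgeR, adjusted p = 0.0212; with the offset 1.12, adjusted p = 0.0588). Foxo1 and Rora also passed as higher; they lie outside the rule for named genes and were named after their values were seen. Creb3l3, a hepatic activator of Apoa4, did not pass, at 0.45 ± 0.18 (adjusted p = 0.124). Alb had 85347, 98359, 88081 and 84428 CPM in the AAV-H19 livers, against 68059, 85669, 57888 and 73466 CPM in the AAV-Null livers, and did not pass, at 0.32 ± 0.17 (edgeR, adjusted p = 0.23).

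**Figure D5:**
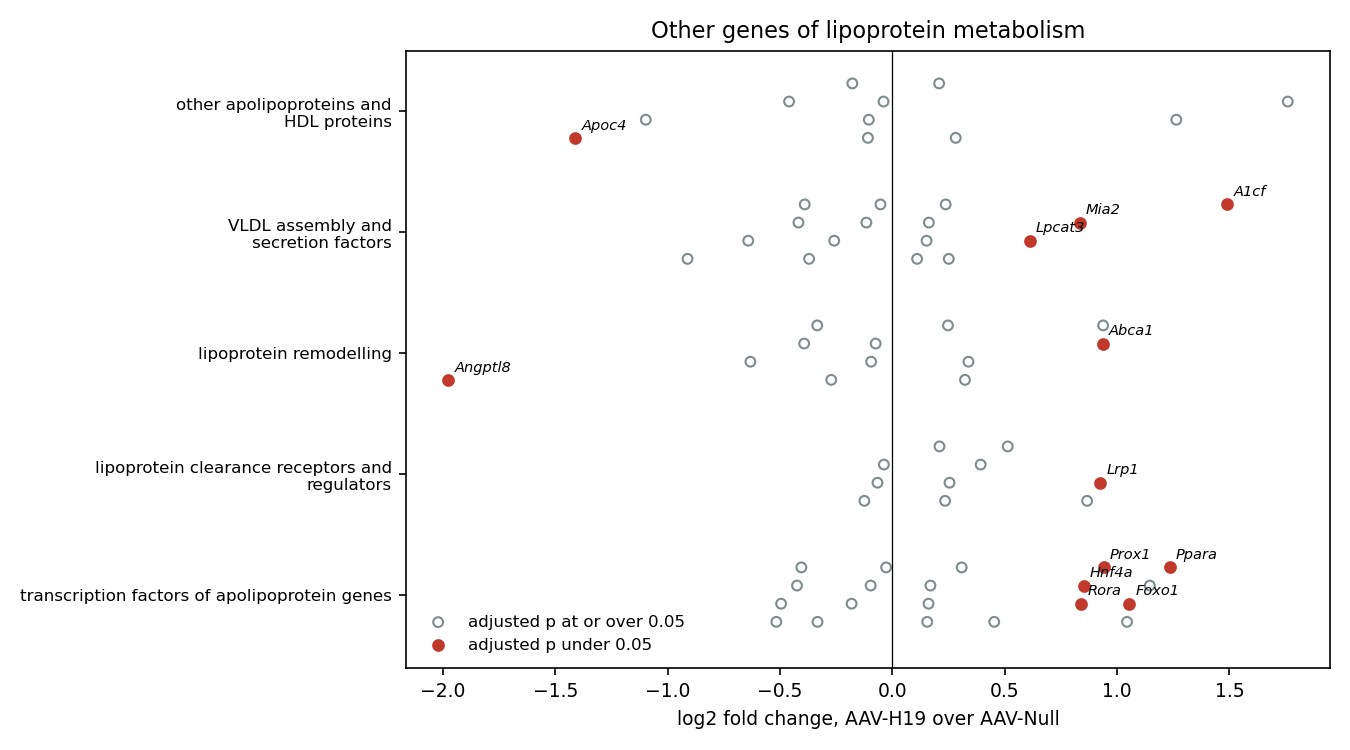
Log2 fold change (AAV-H19 over AAV-Null) of the tested genes of the 5 related lists, a band per list, filled where the adjusted p is under 0.05, with the called genes labelled. Of 69 genes, 10 are filled to the right and 2 to the left, against 5.6% and 6.07% of all genes tested.

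Markers of cells that also make these proteins were read in the same libraries, in which 5.6% of all genes tested passed as higher and 6.07% as lower. With the length offset these shares were 1.41% and 0.804%. Of 10 hepatocyte markers, 2 (Cps1 and Ahsg) passed as higher and 0 as lower, and with the length offset 1 (Ahsg) passed. Fold changes were positive for 7 and negative for 3, namely Ttr (-0.34), Cyp2e1 (-0.57) and Hpx (-0.43). Summed levels were 137851 to 145859 CPM in AAV-H19 livers and 94040 to 131695 CPM in AAV-Null livers. Most of each sum was Alb, at 84428 to 98359 CPM in AAV-H19 livers and 57888 to 85669 CPM in AAV-Null livers. Of 8 intestine markers, 2 were tested, neither passed on all 8 livers, and 5 were at 0 in every library. Fabp2, the most abundant of them, had 20.5 to 31.9 CPM in AAV-H19 livers and 40.5 to 209.8 CPM in AAV-Null livers, the highest in AAV-Null 22. Its log2 fold change was -1.69 (edgeR, adjusted p = 0.0514), and it passed as lower without AAV-Null 22 (-0.86, adjusted p = 0.0333). Vil1, the other tested marker, went the other way, at 2.76 (edgeR, adjusted p = 0.188) and 4.82 without AAV-Null 22 (adjusted p = 0.0588). It was low, at 0.058 to 1.03 CPM in AAV-H19 livers and 0 to 0.24 CPM in AAV-Null livers. Of 6 stellate cell markers, 0 passed, and of 6 endothelial markers 1 passed as lower, and 0 with the length offset. Their part in the members' values was not tested.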

How the data were processed

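Poly(A) RNA of 8 mouse livers was sequenced from strand-specific libraries, per the labels' protocols. HISAT and StringTie were used, per the submitters' processing notes, which give no version or role; the genome build, gene annotation and counting strand were not given in the sources used here. Values in the authors' deposited table are estimated counts, also called expected counts, for 55450 Ensembl identifiers; they are whole and appear not to be normalized, and 0 columns lack a sample. Low values pile up at multiples of 4, so a unit is not a read, and units understate the counting error. All identifiers matched GENCODE M21 (GRCm38), from which symbols, positions and transcript lengths were taken; the authors may have used another build.

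Low genes were removed by edgeR 4.0.16 (filterByExpr, minimum count 10, minimum total 15). TMM scaled the libraries, and AAV-H19 was compared with AAV-Null by edgeR's quasi-likelihood test (robust, no covariates; R 4.3.3). P-values were adjusted by Benjamini-Hochberg over 16672 genes at a threshold of 0.05. Every adjusted p comes from it unless DESeq2 1.42.0 is named. The SE is the size of the log2 fold change over the root of its F statistic, and intervals are 95% from the moderated t quantile. The length offset subtracts each library's trend of log2 CPM on log2 length of the longest transcript (natural spline, 5 degrees of freedom). CPM used a prior count of 2 where logged. The fit was run on simulated data whose length trend, where one was added, was linear and the same within a group. The trends of the real libraries differed within groups, so those runs cannot show how the offset does on them. No pair of libraries agreed within sampling noise.

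Alternatives were other scaling factors, DESeq2, limma 3.58.1 voom, other filters, values divided by 4, GC and length offsets, overlapping genes summed and each library left out. Length offsets by median transcript length or without AAV-Null 22 were chosen after seeing the data, as were the counts of related genes under each alternative. The members and lists were chosen with earlier results of these data known. Named genes are the members, H19, up to 3 called genes with the smallest p per list, genes named whatever their result (1 of them, and 1 motif, are not reported here), and the 3 genes most like Apob and Apoa4. Reads from antisense partners of Apoa4, Apoa5, Apoh and Mttp came to at most 1.02% of the member. Promoters are RefSeq windows of GRCm38.p6.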

Additional observations from a re-analysis of the deposited data

Results flagged for a closer look

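In 58 groups of 4 livers (members and named genes), 8 had a liver whose gap to its nearest neighbour was a large part of the group's range (Dixon's criterion, critical value 0.829); chance gives about 5% of groups. Among the members, Apoa1 had 12575 CPM in AAV-H19 28, with the other AAV-H19 livers at 9394 to 9711. Mttp had 531 CPM in AAV-H19 26, with the others at 426 to 438. Apoe had 7084 CPM in AAV-Null 21, with the others at 10347 to 10561. Of the other genes, Apoc2 had 74.1 CPM (others 37.4 to 43.6), Apoc4 2266 CPM (others 728 to 980) and Mia2 154 CPM (others 170 to 173) in AAV-Null 22. In AAV-Null 24, Creb3l3 had 548 CPM (others 358 to 378) and Abca1 141 CPM (others 84.2 to 92.1).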

How the results depend on the processing

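The smallest value of a member was 23495 units; since a unit is not a read, the depth in reads is unknown. No paired analysis was possible because the livers are numbered 21 to 28 with no number shared between groups. Over all genes, 934 were higher and 1012 lower. Upper-quartile factors gave 656 and 1557 and moved the median of all genes to -0.13. DESeq2 gave 1635 and 2010 of 15971 genes, more than the original fit in both directions. The length offset gave 235 and 134, and that offset without AAV-Null 22 gave 353 and 231. With median transcript length in the offset, 446 were lower. Leaving out 1 library gave 86 to 1023 higher and 27 to 1050 lower, the fewest without AAV-H19 27; without AAV-H19 25, 26 and 28 they were 128 and 53, 206 and 98, and 373 and 327, and without AAV-Null 24 679 and 498. Members called lower were 1 in the original fit, 3 with upper-quartile factors and 3 with DESeq2, which also called 1 higher. There were 2 with a filter of 1 CPM in 4 samples and 2 with values divided by 4. The GC offset and every length offset gave 0. Without 1 library, members called were 0 to 2 higher and 0 to 3 lower. These counts stand beside those over all genes above, where DESeq2 also called more. Counts over all genes are not given for the 1 CPM filter, values divided by 4 or the GC offset. Related genes called were 10 higher and 2 lower; 1 lower was found with no filter, with the GC offset and with median transcript length, and 1 higher and 0 lower with the length offset. Without 1 library they were 1 to 10 higher and 0 to 2 lower. Directions turned for Apoa5 (0.12 with limma-voom, 0.033 with the length offset, 0.30 with median length, and -0.17 to 0.44 without 1 library), Apoa1 (0.17 with the length offset, 0.15 without AAV-Null 22 too), Apoh (0.31, 0.26 with median length, 0.28 without AAV-Null 22 too), Lipc (0.072 with the length offset, 0.14 without AAV-Null 22 too) and P4hb (0.13 with median length, 0.10 with the offset without AAV-Null 22, -0.18 to 0.071 without 1 library). The cause was not tested.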
